A study of Mus musculus with 12 samples.

Results

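Transcripts of 7 lysosomal cathepsins and 3 cystatins were followed in the hippocampus of APP/PS1 and WT mice, so that the proteases could be read beside their inhibitors. The 10 genes were chosen by name, as a list of cathepsin and cystatin genes, from the 55573 genes of the count table. Earlier results of these data were known when the list was made, and the paper names Cst7 and Ctss as upregulated. Counts and medians of the members beside all genes therefore describe this list and are not a test of it. All 10 were among the 14008 genes expressed highly enough to be tested. They comprise 6 cysteine cathepsins (Ctsb, Ctsl, Ctsz, Ctsh, Ctsc and Ctss), the aspartic cathepsin Ctsd, and the cystatins Cst3, Cst7 and Cstb. APP/PS1 mice (APPSwe/Ps1dE9) carry an APP transgene that joins mouse and human sequence and a human PS1 transgene that lacks exon 9, each driven by a prion promoter element and not by the promoters of the native genes, and WT mice served as controls. All animals were C57BL/6J and 4.5 months old, and each library was made from poly-A RNA of the whole right hippocampus of 1 mouse. There were 4 APP/PS1 and 2 WT animals of each sex, so each sex rests on 2 WT animals. Whole tissue holds many cell types, and in such samples more cells of a type and more RNA per cell cannot be told apart.

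Cathepsins are proteases of the lysosome and endosome that break down proteins taken up or recycled by the cell. Cysteine cathepsins cut with an active-site cysteine and are held in check by cystatins, proteins that plug the active-site cleft, whereas cathepsin D uses a pair of aspartates and is not a target of the cystatins. In the brain, microglia are rich in cathepsins, and cystatin C, the product of Cst3, is secreted by several cell types. Cystatin F, the product of Cst7, acts inside the endolysosomal system, where cathepsin C is among its targets, and cystatin B, the product of Cstb, is a cytosolic inhibitor.

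The promoters of the members that rose are shown because lysosomal genes as a group are known to carry the CLEAR element, whose core is an E-box, and microglial genes the purine-rich site of PU.1, the transcription factor that sets myeloid identity. RefSeq windows on GRCm38.p6, each from 250 bases before to 50 bases after the start site, were matched for 7 of the 10 members. Ctsb, Ctsh and Cstb were not among them. The first 260 bases of a window, which end 10 bases after the start site, are printed 5′ to 3′ for the 5 members that passed the test below and had a window. Capitals mark CACGTG, its longer form TCACGTGA, which contains it, or GAGGAAGT read on either strand (ACTTCCTC on the strand printed). The windows lie at chr7:142387818-142388077 on the minus strand for Ctsd, chr13:64370511-64370770 on the minus strand for Ctsl, chr3:95526536-95526795 on the plus strand for Ctss, chr2:174439030-174439289 on the minus strand for Ctsz and chr2:150570165-150570424 on the plus strand for Cst7.
Ctsd: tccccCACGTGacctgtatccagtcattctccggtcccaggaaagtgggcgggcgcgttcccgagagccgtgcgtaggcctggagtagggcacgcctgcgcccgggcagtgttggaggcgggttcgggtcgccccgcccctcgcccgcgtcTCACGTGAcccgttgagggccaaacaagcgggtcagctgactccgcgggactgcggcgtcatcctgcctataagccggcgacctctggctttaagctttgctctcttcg
Ctsl: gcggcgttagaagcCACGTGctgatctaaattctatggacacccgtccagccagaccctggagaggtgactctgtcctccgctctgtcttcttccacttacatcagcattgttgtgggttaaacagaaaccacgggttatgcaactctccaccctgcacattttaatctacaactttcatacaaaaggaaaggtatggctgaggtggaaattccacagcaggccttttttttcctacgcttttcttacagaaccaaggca
Ctss: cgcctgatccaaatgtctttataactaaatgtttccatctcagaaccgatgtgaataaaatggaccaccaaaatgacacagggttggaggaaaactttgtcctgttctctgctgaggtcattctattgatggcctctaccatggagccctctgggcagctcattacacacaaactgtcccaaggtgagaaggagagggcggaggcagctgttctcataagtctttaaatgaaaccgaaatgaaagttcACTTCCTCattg
Ctsz: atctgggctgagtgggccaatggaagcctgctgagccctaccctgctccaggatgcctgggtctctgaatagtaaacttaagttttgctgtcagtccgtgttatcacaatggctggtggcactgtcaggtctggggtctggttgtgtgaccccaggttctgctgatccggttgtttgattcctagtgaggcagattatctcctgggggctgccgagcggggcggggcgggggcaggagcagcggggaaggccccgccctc
Cst7: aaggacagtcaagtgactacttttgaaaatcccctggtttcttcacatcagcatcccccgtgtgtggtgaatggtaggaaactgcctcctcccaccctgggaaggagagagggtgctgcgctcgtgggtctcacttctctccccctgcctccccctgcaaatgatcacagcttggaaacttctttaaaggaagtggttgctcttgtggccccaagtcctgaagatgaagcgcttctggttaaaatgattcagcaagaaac

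CACGTG stood in the windows of 2 of the 7 members, Ctsd and Ctsl, and in 7.15% of the 32851 promoter windows searched. Ctsd held it at 245 and at 98 bases before the start site, the second copy inside TCACGTGA, which was found in no other member and in 0.974% of all windows. In Ctsl the letters began 236 bases before the start site of its window. That whole window lies inside the annotated gene, whose 5′ end is at 64370890, so this match is not upstream of the gene. The second copy in Ctsd likewise lies inside its annotated gene, whose 5′ end is at 142388038. For Cst3 the start site used also lies inside the gene (5′ end at 148875692). GAGGAAGT was found, on the opposite strand, 2 bases before the start site of Ctss and 151 bases before that of Ctsc, and in 3.2% of all windows. Cst7, Ctsz and Cst3 held none of these letters in this window. A match is a description of the sequence and no binding was measured.

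Reads counted on genes ranged from 36714316 to 50643565 per library, and counts of paired libraries of a group differed with a chi-square of 12.6 to 57.2 per degree of freedom, so no pair agreed within sampling noise. App gave no check of the genotype labels in these counts, with a log2 fold change of 0.00 (adjusted p = 0.995, edgeR). In 3 libraries, those of WT female 2, APP/PS1 female 1 and APP/PS1 male 2, transcripts of the choroid plexus stood apart, with Ttr at 3530 to 6362 CPM (a gene's counts relative to the scaled size of its library) against 2.69 to 18.3 in the other 9, and the values without these libraries stand beside the calls, sums, marker ratios and correlations. The summed level of 9 hippocampal neuron markers lay between 8854 and 10090 CPM in every library. No other tissue was set beside it, so this sum does not check the tissue label.

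The proteases and inhibitors were first compared between genotypes with both sexes averaged. Of the 10 members, 6 rose in APP/PS1, none fell, and the fitted log2 fold change of every member was above 0. Those that rose were Cst7, Ctss, Ctsz, Ctsd, Ctsh and Ctsl, that is 4 of 6 cysteine cathepsins, the aspartic cathepsin and 1 of 3 cystatins. The test was edgeR's quasi-likelihood test at a false discovery rate (FDR) under 0.1 with Benjamini-Hochberg adjustment over 14008 genes, which called 1.85% of all genes, and 1.7% as higher in APP/PS1. The median log2 fold change was 0.59 over the 10 members and 0.01 over all genes tested. As the members were listed with earlier results of these data known, the choice itself may set part of this contrast. At an unadjusted p under 0.05, 9 of the 10 members passed, all but Cstb, against 9.47% of all genes, or 6.15% as higher. The count of 6 fell to 1, Cst7 alone, without APP/PS1 male 2, to 2 (Ctsl and Cst7) without WT female 1 or without WT female 2, and to 3 without WT male 1, whereas edgeR's likelihood ratio test, which called 2.72% of all genes, and DESeq2, which called 2.76%, each called 9. Without the 3 libraries rich in choroid plexus transcripts the count was 7 with the 2 factors of unwanted variation (RUV) that the model holds and 2 (Ctsd and Cst7) without them.

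**Figure D1:**
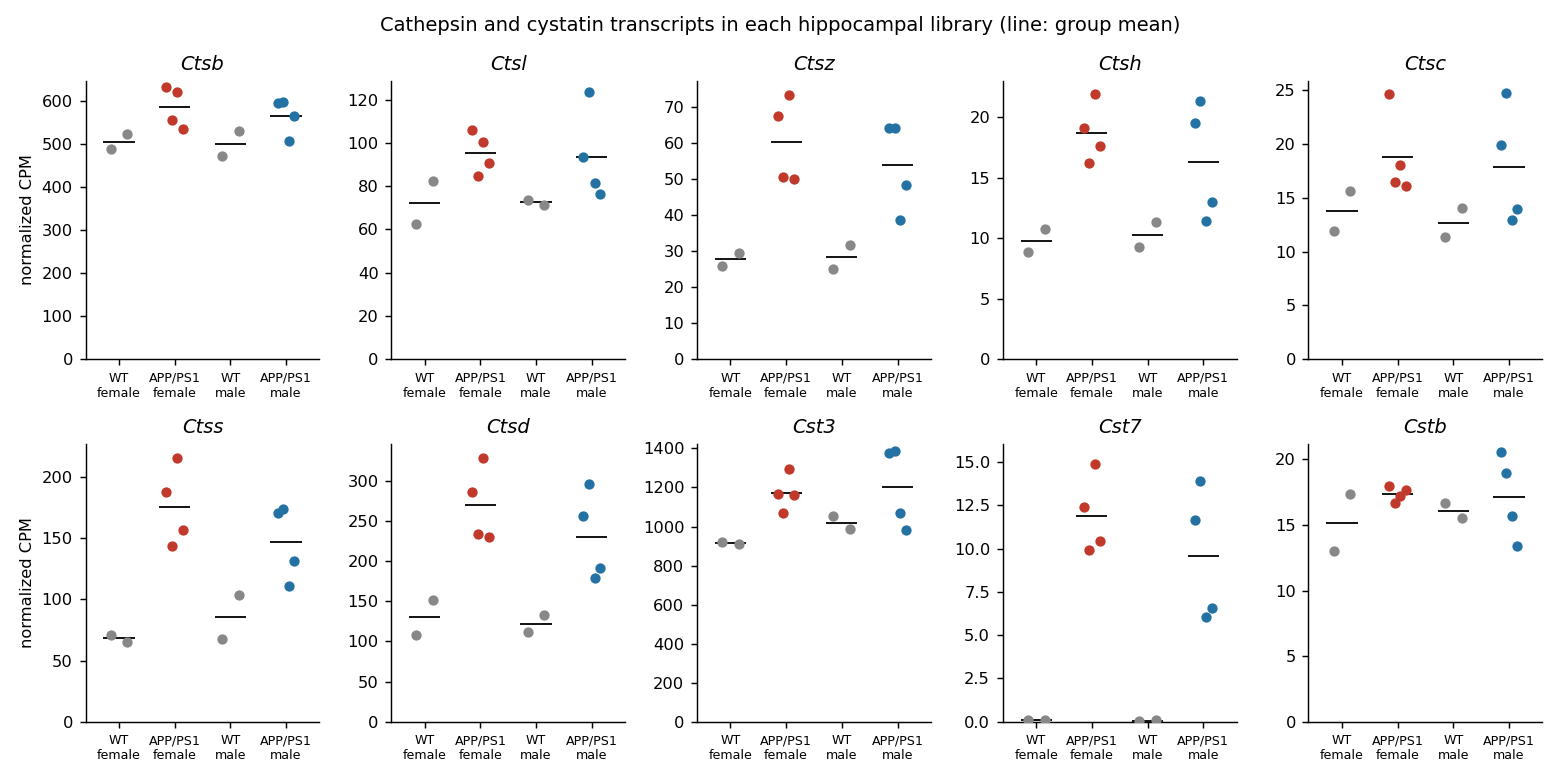
Each panel plots normalized CPM (y axis, from 0) of a gene in the 12 libraries, grouped on the x axis by genotype and sex, with a point per animal and a line at the group mean. For Ctsz, Ctsh, Ctss, Ctsd and Cst7 all 8 APP/PS1 points lie above all 4 WT points, and Cst7 in WT lies at or near the axis, at no more than 0.106 CPM.

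Among the cysteine cathepsins, Ctss and Ctsz had the largest folds, within their errors of each other. Ctss encodes cathepsin S, an endopeptidase of antigen-presenting cells that remains active at neutral pH and trims the invariant chain of MHC class II (chromosome 3, 95526786 to 95556403, plus strand, GRCm38, ENSMUSG00000038642, as for all members protein coding). Normalized CPM of Ctss were 188, 143, 215 and 157 in APP/PS1 females 1 to 4, 171, 174, 111 and 131 in APP/PS1 males 1 to 4, 70.8 and 65.5 in WT females and 67.8 and 104 in WT males. The lowest APP/PS1 library, male 3, lay just above the highest WT library, WT male 2, so the groups did not overlap. Ctss rose 2.08-fold (95% CI 1.51 to 2.87), a log2 fold change of 1.05 ± 0.197 (SE) with an adjusted p of 0.068 (edgeR).

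Ctsz encodes cathepsin Z, a carboxypeptidase (chromosome 2, 174427493 to 174439039, minus strand, ENSMUSG00000016256). Its normalized CPM were 67.5, 50.5, 73.3 and 49.9 in APP/PS1 females, 64.1, 64.0, 38.7 and 48.2 in APP/PS1 males, 25.9 and 29.4 in WT females and 25.0 and 31.6 in WT males. Every APP/PS1 library was above every WT library, with male 3 again the lowest of the 8. The rise was 2.02-fold (95% CI 1.54 to 2.65), or 1.01 ± 0.171 on the log2 scale, with an adjusted p of 0.0384 (edgeR). Ctsz overlaps Nelfcd on the other strand by 10 bases, and Nelfcd itself had a log2 fold change of 0.00 (adjusted p = 0.994).

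Ctsh encodes cathepsin H, mainly an aminopeptidase (chromosome 9, 90054152 to 90076089, plus strand, ENSMUSG00000032359). Normalized CPM of Ctsh were 19.1, 16.2, 21.9 and 17.6 in APP/PS1 females, 19.5, 21.4, 11.4 and 12.96 in APP/PS1 males, 8.84 and 10.7 in WT females and 9.24 and 11.3 in WT males. The groups met without overlapping, since APP/PS1 male 3 exceeded WT male 2 by less than 1%. Ctsh rose 1.68-fold (95% CI 1.33 to 2.13), a log2 fold change of 0.75 ± 0.152 (adjusted p = 0.0474, edgeR).

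Ctsl, for cathepsin L, a broad endopeptidase, showed a smaller change (chromosome 13, 64359337 to 64370890, minus strand, ENSMUSG00000021477). Its normalized CPM were 106, 84.7, 100 and 90.9 in APP/PS1 females, 93.4, 124, 81.3 and 76.2 in APP/PS1 males, 62.4 and 82.4 in WT females and 73.7 and 71.1 in WT males. The genotypes overlapped, as WT female 2 was above APP/PS1 males 3 and 4. Ctsl rose 1.26-fold (95% CI 1.16 to 1.37), or 0.34 ± 0.0561 on the log2 scale, with an adjusted p of 0.0118 (edgeR), and the call was lost without RUV factors (0.39, adjusted p = 0.399) and without APP/PS1 male 2 (0.28, adjusted p = 0.235), where the log2 fold change stayed of a like size. The libraries with the most Ctsl and Ctsc in each genotype were those rich in choroid plexus transcripts. In APP/PS1 these had 106 and 124 CPM of Ctsl against 76.2 to 100 in the other 6, and 24.7 and 24.8 CPM of Ctsc against 12.96 to 19.9, and WT female 2 had 82.4 CPM of Ctsl and 15.6 of Ctsc against at most 73.7 and 14.1 in the other WT libraries. Without these 3 libraries the log2 fold change of Ctsl was 0.36 with 2 RUV factors and 0.38 without them. With a choroid plexus score as covariate, in place of the RUV factors, it was 0.37 (adjusted p = 0.022, edgeR). With 1 RUV factor it was also 0.37 (adjusted p = 0.0202, edgeR). The first RUV factor of the main model already set these 3 libraries apart, at 0.459 to 0.555 against -0.223 to -0.129 in the rest. The score is therefore not a check independent of that factor. Ctsl overlaps Gm49230 on its own strand by 395 bases and Gm47123 on the other strand by 1742 bases, which had at most 1 count in any library.

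The other pair of cysteine cathepsins did not pass the test. Ctsb encodes cathepsin B, an endopeptidase that also removes C-terminal dipeptides (chromosome 14, 63122462 to 63145923, plus strand, ENSMUSG00000021939), and it had the most counts of the 6. Normalized CPM of Ctsb ranged from 508 to 634 (median 580) in APP/PS1 and from 474 to 530 (median 506) in WT, and the ranges overlapped. Its log2 fold change was 0.20 ± 0.0527 (adjusted p = 0.113, edgeR), a 95% CI of 1.06 to 1.24-fold. Ctsb overlaps Fdft1, an enzyme of sterol synthesis, on the other strand by 774 bases. Fdft1 rose by 0.63 on the log2 scale (adjusted p = 0.000879), and its part in the counts of Ctsb was not tested.

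Ctsc encodes cathepsin C, a dipeptidyl peptidase that activates granule serine proteases (chromosome 7, 88278085 to 88310888, plus strand, ENSMUSG00000030560). Normalized CPM of Ctsc ranged from 12.96 to 24.8 (median 17.3) in APP/PS1 and from 11.3 to 15.6 (median 13.01) in WT. The log2 fold change was 0.42 ± 0.110 (adjusted p = 0.113, edgeR), so its size lay between those of Ctsl and Ctsh. Ctsc passed the threshold in 10 of 24 alternative settings, among them both count tests other than the main one.

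Ctsd, which encodes the main aspartic protease of the lysosome, nearly doubled (chromosome 7, 142375911 to 142388038, minus strand, ENSMUSG00000007891). Normalized CPM of Ctsd were 286, 233, 329 and 230 in APP/PS1 females, 256, 296, 180 and 191 in APP/PS1 males, 108 and 152 in WT females and 112 and 133 in WT males. No WT library reached the lowest APP/PS1 library. The rise was 1.95-fold (95% CI 1.54 to 2.46), a log2 fold change of 0.96 ± 0.147 with an adjusted p of 0.0271 (edgeR). Gm49369, which shares 808 bases with Ctsd on the same strand, had no count in any library.

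Of the cystatins, Cst7 alone passed the test, and it went from near absence in WT to a readily counted level in APP/PS1. It lies on chromosome 2 (150570415 to 150578944, plus strand, ENSMUSG00000068129). WT libraries held 4, 4, 1 and 4 counts of Cst7, or 0.0263 to 0.106 normalized CPM, whereas APP/PS1 females had 12.4, 9.93, 14.9 and 10.4 normalized CPM and APP/PS1 males 11.7, 13.9, 6.04 and 6.57. In counts, APP/PS1 libraries held between 258 and 646. The lowest APP/PS1 value was far above the highest WT value, and males 3 and 4 were the lowest of the 8, as they were for the other 5 members that rose. Summed over libraries and scaled to their depth, Cst7 was 142-fold higher in APP/PS1 (95% exact interval 82.9 to 267, which covers counting error only). The fitted log2 fold change was 7.04 ± 0.363 (adjusted p = 6.87e-06, edgeR), a value that depends on the prior count used for near-empty libraries, and only 1 gene of all 14008 had a smaller p. Cst7 was called in all 24 alternative settings, with log2 fold changes of 6.79 to 7.57.

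The other cystatins were not called. Cst3 (chromosome 2, 148871722 to 148875692, minus strand, ENSMUSG00000027447) ranged from 984 to 1386 normalized CPM (median 1163) in APP/PS1 and from 912 to 1055 (median 953) in WT. APP/PS1 male 4 fell within the WT range and the rest lay above it, and the log2 fold change was 0.25 ± 0.0732 (adjusted p = 0.192, edgeR). Cstb (chromosome 10, 78425669 to 78427622, plus strand, ENSMUSG00000005054) ranged from 13.4 to 20.6 in APP/PS1 and from 12.99 to 17.4 in WT. Its log2 fold change was 0.10 ± 0.0887 (adjusted p = 0.8, edgeR), with a 95% CI of 0.939 to 1.22-fold.

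Without a model, all 8 APP/PS1 libraries lay above all 4 WT libraries for 5 of 10 members, Ctsz, Ctsh, Ctss, Ctsd and Cst7, against 1.31% of all genes tested. Ctsl, the member with the smallest p after Cst7, was not among the 5. Without the 3 choroid plexus-rich libraries the count was 6. The share of all genes is not given for this smaller set, where groups separate more easily, so nothing is read from that count.

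**Figure D2:**
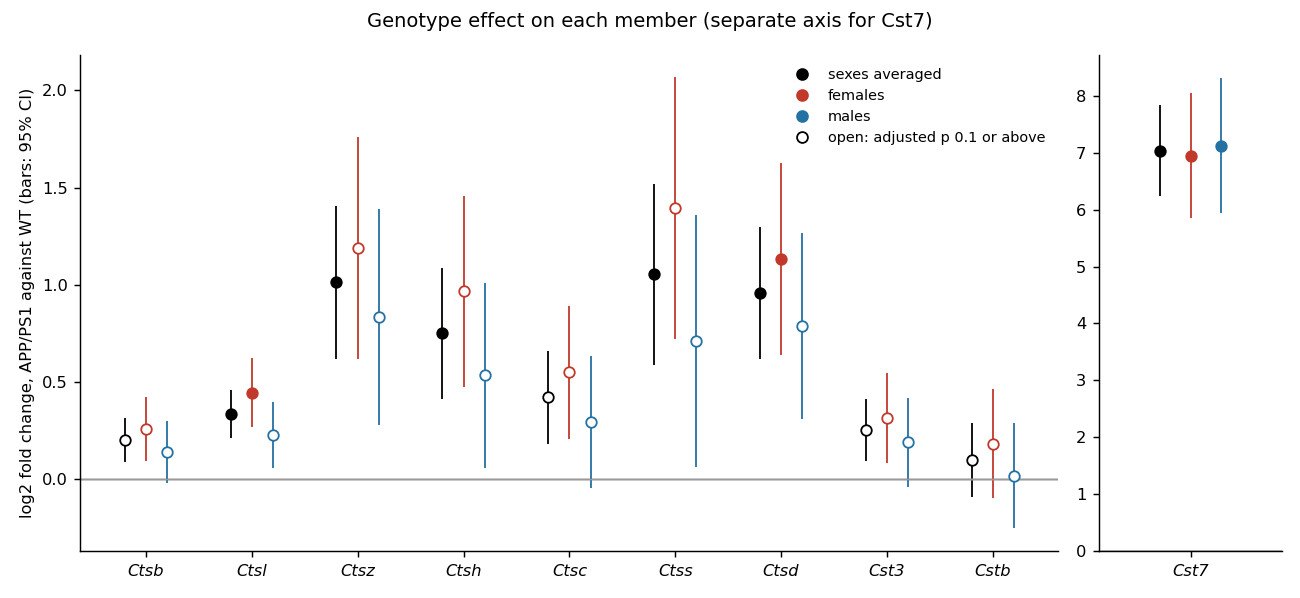
Points give the log2 fold change of APP/PS1 against WT from edgeR for each member, with both sexes averaged (black), in females (red) and in males (blue), bars are 95% CI and open points have an adjusted p of 0.1 or above. Cst7, near 7, has an axis of its own at the right. Female points lie above male points for all members but Cst7, and the bars of the sexes overlap for every member.

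The design also asks whether the genotype effect differed between the sexes. In females 3 members were called, Ctsl, Ctsd and Cst7, with a background of 0.778% of all genes, or 0.728% as higher. Which members were called depended on the RUV factors. Without these factors, Ctss and Cst7 were called in females. A fit of females alone, also without RUV factors, called Ctsz, Ctsh, Ctss and Cst7. The share of all genes is not given for either fit. In males Cst7 alone was called, with a background of 0.157%. At an unadjusted p under 0.05 the members that passed were 9 in females, against 9.54% of all genes (6.13% as higher), and 6 in males, against 5.15% (3.21% as higher). These counts do not establish a difference between the sexes, as the test of the difference itself (the interaction) called no member and none of the 14008 genes. With 2 WT animals per sex, that test does not show that the sexes were alike either. At an unadjusted p under 0.05 the interaction held no member either, against 3.58% of all genes, and the likelihood ratio test and DESeq2 called no member.

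The log2 fold changes of Ctss were 1.396 ± 0.285 in females and 0.71 ± 0.274 in males, a difference of 0.68 with a 95% CI of -0.22 to 1.59. For Ctsl, the member with the smallest interaction p (0.0792 unadjusted, edgeR), they were 0.45 ± 0.0816 and 0.23 ± 0.0795. For Ctsd the values were 1.13 ± 0.214 in females, where the adjusted p of 0.0996 was just inside the threshold, and 0.79 ± 0.207 in males. Cst7 had nearly equal values, 6.95 ± 0.498 and 7.13 ± 0.537. The point estimate was larger in females for 9 of 10 members, all but Cst7, and the members are not independent of each other. By libraries, all 4 APP/PS1 females lay above both WT females for 9 of 10 members (not Cstb), where 12.5% of all genes did so, and all 4 APP/PS1 males above both WT males for 6 of 10, where 6.5% did so.

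Females and males were compared directly within each genotype as well. No member was called in APP/PS1, where 0.0857% of all genes were, or in WT, where 0.05% were, and none passed an unadjusted p of 0.05 in either, where 5.32% and 4.49% of all genes did. In APP/PS1 the largest difference was that of Cst7, which was higher in females by 0.42 on the log2 scale (95% CI -0.05 to 0.89). APP/PS1 males 1 and 2 had levels of Cst7 like those of the females, and males 3 and 4 had the lower values. In WT females against WT males, Ctss had a log2 difference of -0.41 (95% CI -1.17 to 0.35), where WT male 2 held the highest WT value.

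To set proteases beside inhibitors on a scale that allows genes to be compared, normalized CPM were divided by the length of each gene's principal transcript (CPM per kb). The 6 cysteine cathepsins summed to 346 ± 50.1 CPM per kb in APP/PS1 (SD, n = 8) and 231 ± 20.9 in WT (SD, n = 4), with ranges of 269 to 412 and 215 to 259 that did not overlap. The 3 cystatins summed to 1421 ± 180 and 1152 ± 78.1, with ranges that overlapped. These sums are of transcripts and say nothing of the amounts or activity of the proteins.

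The ratio of summed cysteine cathepsins to summed cystatins was 0.244 ± 0.0239 in APP/PS1 (0.211 to 0.282) and 0.201 ± 0.0223 in WT (0.171 to 0.221). The ranges overlapped, as 2 WT animals lay above the lowest APP/PS1 library. Cst3 made up 97.2% of the cystatin sum in APP/PS1 and 97.7% in WT, so this ratio is in effect one of cathepsins to Cst3. Against Cst7 and Cstb alone, which act mainly inside the cell, the ratio was 8.82 ± 0.847 in APP/PS1 and 8.97 ± 1.195 in WT. These means differed by less than the SD of either group. Without the 3 choroid plexus-rich libraries the ratios were 0.240 in APP/PS1 and 0.197 in WT with Cst3, and 8.80 and 9.25 without it. The make-up of the intracellular pair did differ, as Cst7 was 27.1% ± 4.81 of it in APP/PS1 (SD, n = 8) and 0.303% ± 0.163 in WT (SD, n = 4).

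**Figure D3:**
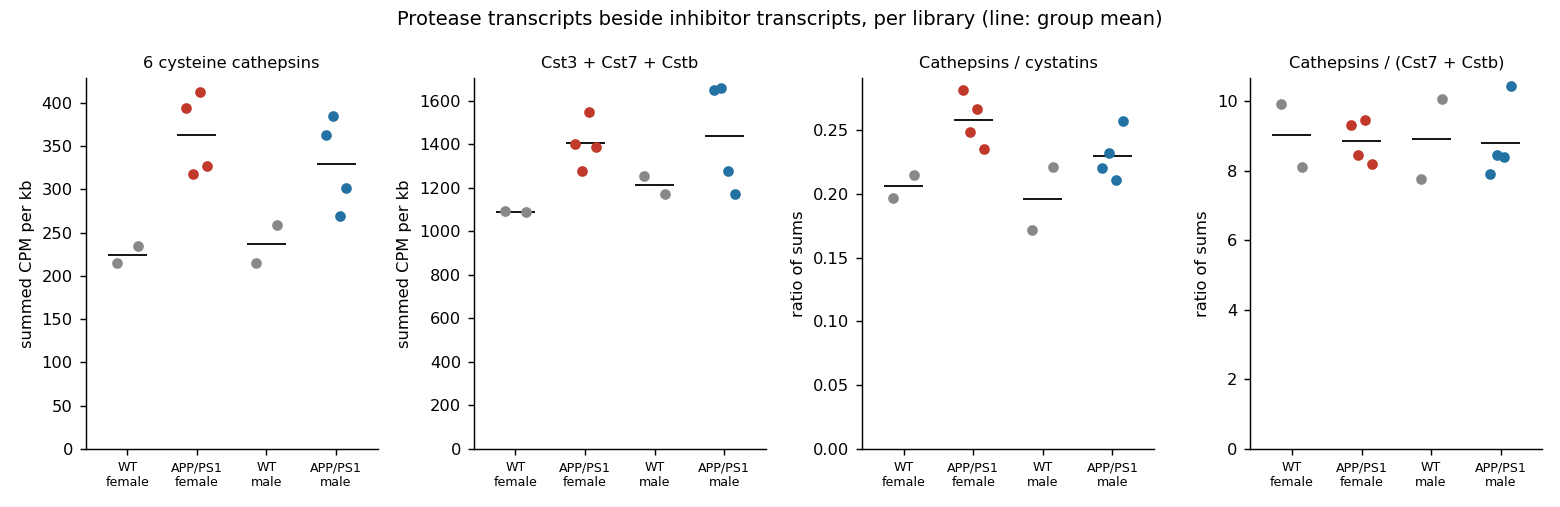
The panels plot, per library and by genotype and sex, the summed CPM per kb of the 6 cysteine cathepsins, that of the 3 cystatins, and the ratio of the cathepsin sum to all 3 cystatins or to Cst7 and Cstb alone; points are animals, lines are group means and axes start at 0. The cathepsin sum separates the genotypes (269 to 412 against 215 to 259), and the ratio without Cst3 has means of 8.82 and 8.97.

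The make-up of the protease sum also differed between genotypes, with no test run on shares. Ctsb accounted for 46.2% ± 2.11 of the cysteine cathepsin sum in WT (SD, n = 4) and 35.5% ± 2.97 in APP/PS1 (SD, n = 8). Ctss accounted for 24.5% ± 3.75 and 34.1% ± 2.43, and neither share overlapped between the genotypes. The ratio of Ctss to Ctsb per kb was 0.533 ± 0.107 in WT and 0.971 ± 0.142 in APP/PS1. For Ctsc and Cst7, an enzyme and its inhibitor, WT libraries held 44.6 to 170 times as much Ctsc, and APP/PS1 libraries 0.481 to 0.849 times, so transcripts of the inhibitor outnumbered those of the enzyme per kb in every APP/PS1 library. The WT ratios rest on 1 to 4 counts of Cst7, and with union-exon lengths the ranges were 19.1 to 73.0 in WT and 0.206 to 0.364 in APP/PS1. Without the 3 choroid plexus-rich libraries the shares were 45.8% and 36.2% for Ctsb and 25.7% and 34.1% for Ctss, in WT and APP/PS1.

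Ordered by mean CPM per kb, WT hippocampus held Cst3 (1126), Ctsb (106), Ctsd (59.3), Ctss (56.8), Ctsl (36.7), Cstb (25.9), Ctsz (19.4), Ctsh (6.20), Ctsc (5.31) and Cst7 (0.0758). The ranges over the 4 WT libraries overlapped between Ctsd and Ctss, Cstb and Ctsz, and Ctsh and Ctsc, and the other neighbours were apart. In APP/PS1 the order ran Cst3 (1382), Ctsb (122), Ctss (119), Ctsd (118), Ctsl (48.0), Ctsz (39.6), Cstb (28.6), Cst7 (10.9), Ctsh (10.8) and Ctsc (7.37). There Ctsb, Ctss and Ctsd overlapped, as did Ctsl with Ctsz, Ctsz with Cstb, Cst7 with Ctsh and Ctsh with Ctsc. With the union of all annotated exons as the length, Ctsl was divided by 6489 in place of 1971 bases and dropped to 11.2 in WT and 14.6 in APP/PS1, below Ctsz and Cstb. The same change took Ctsh to 3.895 in APP/PS1, below Cst7 in all 8 libraries, so the nearness of Cst7 and Ctsh rests on the length used.

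**Figure D4:**
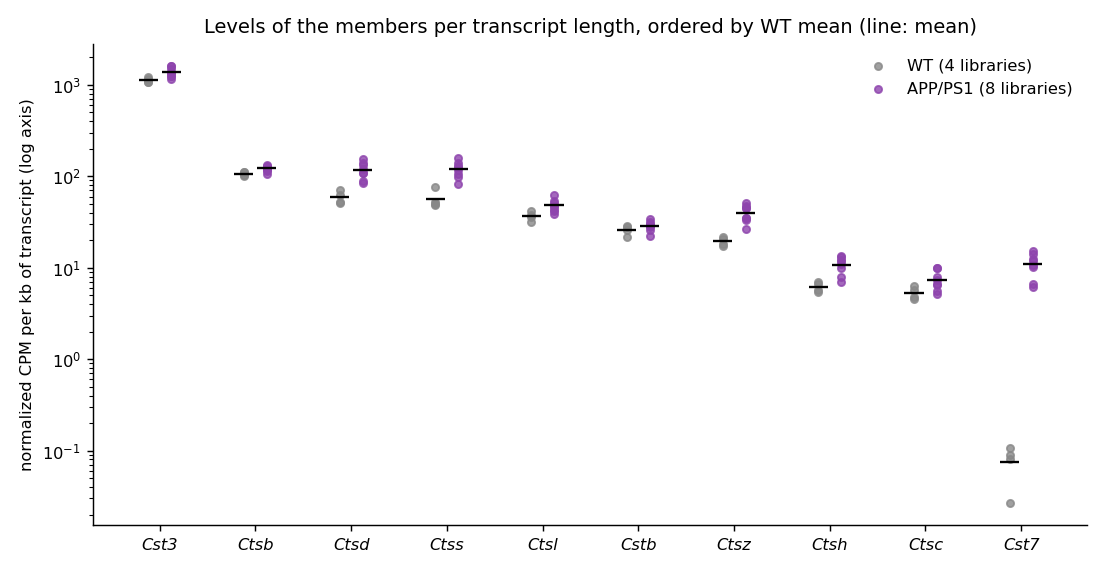
Normalized CPM per kb of principal transcript (log axis) is plotted for each member in 4 WT (grey) and 8 APP/PS1 (purple) libraries, with a line at each mean and genes ordered by WT mean. Cst3 stands above all others at 1126 and 1382, and Cst7 moves from 0.0758 in WT, the lowest level, to 10.9 in APP/PS1, beside Ctsh at 10.8 for this choice of length.

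Few genes of the families beyond the members were expressed highly enough to be tested. Of 16 other cathepsin genes, 9 had no count in any library, 3 were tested and 1 rose, Ctsa, the serine carboxypeptidase that also shields neuraminidase in the lysosome. Ctsa ranged from 70.2 to 98.7 CPM in APP/PS1 and from 62.7 to 80.0 in WT, a log2 fold change of 0.30 ± 0.0633 (adjusted p = 0.0417, edgeR). Ctso and Ctsf were tested without passing, with log2 fold changes of 0.13 and 0.03. Ctse was too low to be tested, with at most 37 counts in a library. It had 0.226 to 1.003 CPM in APP/PS1 and 0 to 0.0788 in WT, without overlap, and was called when the expression filter was left out. Ctsg, Ctsk and Ctsw, also too low to be tested, overlapped between genotypes. Of 18 other genes of the cystatin superfamily, 16 were in the table, and Cst6 alone was expressed highly enough to be tested, with a log2 fold change of 0.41 that did not pass (adjusted p = 0.494). None of the 7 tested inhibitors of other protease classes passed, of 10 written, with adjusted p from 0.665 to 0.975.

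Of 18 genes that process or sort cathepsins or regulate the lysosome, 16 were tested and 2 rose. Grn, for progranulin, a lysosomal protein whose granulin peptides bear on cathepsin D, had 54.7 to 90.2 CPM in APP/PS1 and 41.6 to 52.9 in WT, with no overlap. Its log2 fold change was 0.60 ± 0.117 (adjusted p = 0.05, edgeR). Lamp2, a protein of the lysosomal membrane, ranged from 85.04 to 159 in APP/PS1 and from 77.6 to 108 in WT, with a log2 fold change of 0.27 ± 0.0549 (adjusted p = 0.0362). Lgmn, the asparaginyl endopeptidase that matures several cathepsins, had a log2 fold change of 0.24 (adjusted p = 0.22), and Tfeb, a transcription factor of lysosomal genes, of 0.14 (adjusted p = 0.708). The median over the 16 was 0.07, against 0.59 for the members and 0.01 for all genes.

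Markers of microglia moved with the members. Of 13 microglial markers, 10 were called higher in APP/PS1, all 13 had a log2 fold change above 0, and the median was 0.67. Their summed level was 520 to 781 CPM in APP/PS1 and 345 to 406 in WT, a ratio of means of 1.65 with no overlap. The surface receptor Gpr34 rose by 1.05 ± 0.185 on the log2 scale (adjusted p = 0.0368), whereas Tmem119 at 0.26 (adjusted p = 0.393), Cx3cr1 at 0.66 (adjusted p = 0.194) and Fcrls at 0.83 (adjusted p = 0.477) did not pass (edgeR). The part of microglial number in the members' values was not tested.

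Of the markers of border and blood myeloid cells, 3 of 10 were expressed highly enough to be tested and none was called, with sums of 7.13 to 11.8 CPM in APP/PS1 and 6.83 to 19.6 in WT. The 19.6 was that of WT male 2, and the other WT libraries had 6.83 to 12.5. WT male 2 also held the highest WT values of Ctss, Ctsz and Ctsh, and a link between these was not tested. Among 8 astrocyte markers Gfap alone was called (log2 fold change 1.06 ± 0.139, adjusted p = 0.0135), and the median was -0.02. No marker of 9 for hippocampal neurons and none of 12 for the choroid plexus was called with sexes averaged. Choroid plexus sums ranged from 28.9 to 7187 CPM in APP/PS1 and from 30.9 to 4239 in WT.

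Divided by the summed microglial markers, the members compared differently between genotypes. Ctsb, Cst3 and Cstb were lower per unit of marker in every APP/PS1 library than in every WT library, with ratios of means of 0.695, 0.744 and 0.667. So were 75.8% of all genes tested, as the marker sum itself was higher in all APP/PS1 libraries, and nothing is read from these 3. The ratios for Ctsl (0.785), Ctsc (0.826), Ctsh (1.04), Ctsd (1.18), Ctsz (1.22) and Ctss (1.26) came with ranges that overlapped between genotypes. Cst7 remained apart, 84.9 times higher per unit of marker, with all APP/PS1 libraries above all WT libraries, an order found for 0.157% of all genes. Without the 3 choroid plexus-rich libraries, Ctsd also lay above in every APP/PS1 library (ratio of means 1.29) and Ctsc lay below in every one (0.844). The order of the other members was as before. The share of all genes with these orders is not given for this smaller set, so nothing is read from the changes for Ctsd and Ctsc.

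**Figure D5:**
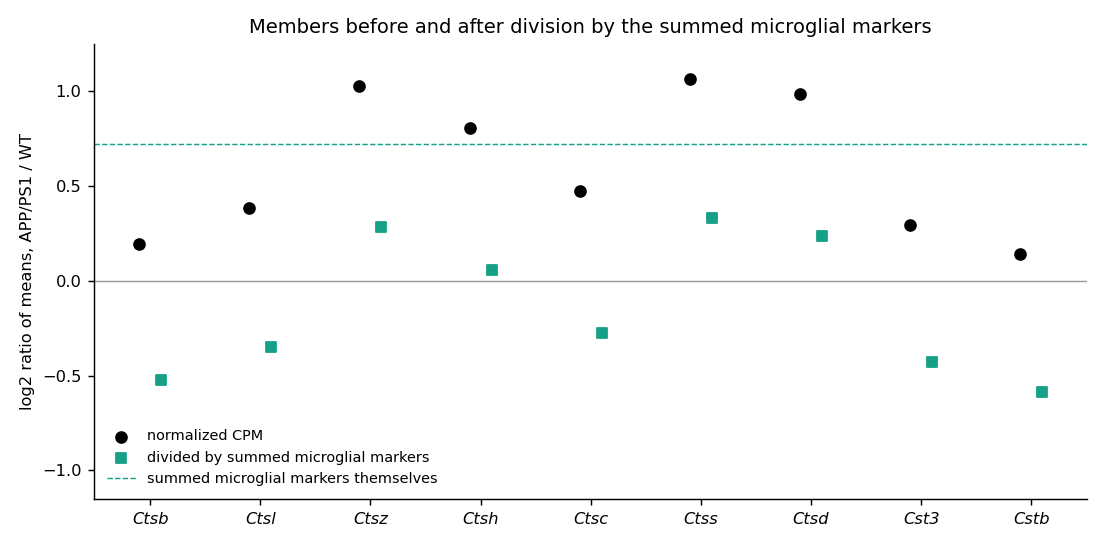
For 9 members (Cst7, whose ratio of 84.9 is beyond the axis, is left out) the log2 ratio of the APP/PS1 to the WT mean is plotted for normalized CPM (black circles) and for the same values divided by the sum of 13 microglial markers (green squares), and the dashed line is the log2 ratio of that sum. The circles of Ctsz, Ctsh, Ctss and Ctsd lie above the dashed line and those of the other 5 below it, and all squares lie below it.

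Across the 8 APP/PS1 libraries, the Pearson correlation on a log2 scale of a member with the summed microglial markers was highest for Ctsz (r = 0.968), Ctss (0.918), Ctsd (0.91) and Ctsb (0.903) and lowest for Ctsl (0.702) and Cstb (0.605). Among the members themselves, the pair most alike was Ctsh and Cst7 (r = 0.992), followed by Ctsd and Cst7 (0.979), and Ctsb with Cstb was the least alike (0.428). Over the 6 APP/PS1 libraries not rich in choroid plexus transcripts these were 0.991, 0.976 and 0.345, and r with the markers ran from 0.547 (Cstb) to 0.976 (Ctsz). Of all genes tested, the 3 most like Cst7 were Ctsh, Ctsd and Pacsin2 (0.976). Among those most like Ctss were Mpeg1 (0.985) and Ptprc (0.982), and those most like Ctsd were Mpeg1 (0.983), Msn (0.983) and Cst7. For Cst3 they were Szrd1 (0.984), Gpr34 (0.966) and Derl1 (0.962). These are descriptions over 8 libraries of both sexes, which share their spread in depth and cell make-up, and the genes at the top of 14008 were selected for their r.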

How the data were processed

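RNA was measured in 12 libraries of whole right hippocampus, 1 per mouse. Per the labels and the paper's methods, Trimmomatic served to trim reads, STAR to align them (GRCm38) and HTSeq to count per Ensembl gene. The counts deposited are raw, with no normalization. Tool versions, annotation release, strand setting and the handling of multi-mapping reads are not given in the sources used here, so genes that overlap another are given with that neighbour. Symbols, positions and lengths came from GENCODE release M21 (55480 of 55573 identifiers matched).

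The filter required log2 CPM to reach 1 in 3 or more libraries (14008 genes). Library sizes were summed over these genes and scaled by upper-quartile factors. The model held 4 groups and 2 RUV factors, computed by RUVg as re-implemented here with all but the top 5000 genes of a first-pass test as controls. Contrasts were tested two-sided in edgeR 4.0.16 under R 4.3.3, by its quasi-likelihood test, with Benjamini-Hochberg adjustment over all genes tested, and called at an FDR under 0.1. The study's own test, edgeR's likelihood ratio test, was an alternative. Normalized CPM were computed here from the scaled library sizes. Other alternatives were DESeq2 (1.42.0), TMM scaling (limma 3.58.1 and edgeR), other filters, 0 or 1 RUV factors, a replicate block, an FDR of 0.05, and each library left out in turn. The procedure was also run on simulated counts that held a common dispersion and no unwanted variation. That run cannot check the RUV factors, and its outcome is not reported here. The members, lists, markers and motifs were chosen with earlier results of these data known. Beyond the members, genes called in a list, the 3 genes most like Cst7, Ctss, Ctsd and Cst3, and the markers that show which cell type moved were named. Other list genes named (Ctso, Ctsf, Ctse, Ctsg, Ctsk, Ctsw, Cst6, Lgmn, Tfeb) were chosen after their values were seen. Some genes that this rule names are not reported here. At this depth the spread between animals, not counting error, limits all members but Cst7 in WT. Sequences are from RefSeq.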

Additional observations from a re-analysis of the deposited data

How the results depend on the processing

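With sexes averaged, the 6 members called became 3 without the expression filter (Ctsl, Ctsc and Cst7) and 2 without both the RUV factors and the 3 choroid plexus-rich libraries, and ranged from 1 to 8 when each library was left out. In females the 3 called became 7 with the likelihood ratio test, 8 with DESeq2, 6 with 1 RUV factor, 6 with a choroid plexus score as covariate, and 6 or 1 without the choroid plexus-rich libraries with or without RUV factors. They ranged from 1 to 6 over the libraries left out, at 1 without APP/PS1 male 2 or WT female 1 and 6 without APP/PS1 male 1. In males the 1 called became 3 with the likelihood ratio test, 2 with DESeq2 and 2 without the choroid plexus-rich libraries. Without RUV factors the calls in females were Ctss and Cst7, and in a fit of females alone Ctsz, Ctsh, Ctss and Cst7. The choroid plexus score stood in place of the RUV factors. The settings on choroid plexus and on exon unions were chosen after seeing the data. With sexes averaged, 2.72% of all genes were called by the likelihood ratio test, 2.76% by DESeq2 and 1.24% without RUV factors. For the other settings, for libraries left out and within each sex that share is not given. Whether a change in those counts is particular to the members was not tested. Leaving out a WT library leaves 1 in that sex, which is then assumed to vary like the other groups. Of 24 alternatives for the averaged fold change, Ctsz and Ctsh lost the call in 8, Ctss in 9, Ctsd in 5 and Ctsl in 4, Ctsc gained it in 10, Ctsb in 4 and Cst3 in 3, and no fold change turned its direction. Among other cathepsins 1 called gene became 2 (Ctsa and Ctse) without the expression filter and 0 without RUV factors. In the processing and sorting list 2 became 1 under either setting. With union-exon lengths the cathepsin to cystatin ratio in APP/PS1 was 0.282, and without Cst3 it was 7.01 in APP/PS1 and 6.81 in WT. The count of 5 members whose genotypes did not overlap was 6 without the choroid plexus-rich libraries and 5 to 6 over the libraries left out, and no alternative called a member for the interaction or between the sexes. The cause was not tested, and the share of all genes without overlap is not given for these subsets of libraries.

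With the replicate number as a block, 2 members (Ctsl and Cst7) were called with sexes averaged and 2 RUV factors and 5 (Ctsz, Ctsh, Ctss, Ctsd and Cst7) without RUV factors. In females the block gave 2 and 1, and in males 1 and 1. Whether the numbers pair animals was not settled. Same-numbered libraries had correlations of -0.633 to 0.685 in their deviations from the group means, and other pairs -0.685 to 0.688. Of 4 APP/PS1 females, 0 correlated best with the male of the same number. With 2 WT animals per sex the deviations of these 2 mirror each other, so correlations with WT libraries cannot decide on pairing.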
